A study of Homo sapiens with 12 samples.

Results

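The 10 genes described here encode transcription factors that shape mammary epithelium: FOXA1, MYB, NFIA, NFIB, ELF3, EHF, SOX9, TFAP2A, KLF5 and GATA3. They were chosen by gene symbol, and all 10 were found among the 11529 genes of the deposited expression table. These factors, and the gene lists set beside them below, were chosen with earlier results of these data known. Their counts beside the share of all genes are therefore descriptions and support nothing. Their mRNA was followed in MDA-MB-468 cells and MDA-MB-231 cells, both derived from triple-negative breast cancers, with and without knockout (KO) of SMARCA4, the ATPase of the SWI/SNF chromatin remodelling complex. Each cell line had 3 control samples, labelled wild type, and 3 SMARCA4 KO samples, 12 in all. KO cells had received a lentiviral vector with Cas9 and 1 guide RNA against SMARCA4 and were selected with puromycin. They were polyclonal pools per the study's methods, so edited and unedited cells may be mixed. The control cells of the study's protein blots carried a nontargeting vector, while the control samples sequenced here are labelled wild type, and whether they carried that vector is not stated in the sources used here. No label says that the 3 samples of a group came from separate cultures, so the p-values below measure only the spread between these samples, which may be technical.

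In the mammary gland, FOXA1 and GATA3 are known as factors of the luminal, milk-duct lining lineage: FOXA1 opens compact chromatin for other factors, and GATA3 maintains luminal cells. MYB is a regulator of proliferating progenitors that is also expressed in luminal breast tumours. NFIA and NFIB belong to the nuclear factor I family, and ELF3 and EHF to the epithelium-specific branch of the ETS family. SOX9 marks luminal progenitors, TFAP2A (AP-2 alpha) is an epithelial and neural crest factor, and KLF5 is a zinc finger factor that promotes growth of epithelial cells. SWI/SNF moves nucleosomes at enhancers and promoters, and the comparison of KO with control cells asks which of these genes differed in mRNA when SMARCA4 was disrupted, and whether they did so alike in both cell lines.

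The values are log2(FPKM + 1), where FPKM counts fragments relative to transcript length and to the size of the library, so that levels of different genes may be compared per length. In limma, a gene passed the test when its Benjamini-Hochberg adjusted p over all 11529 genes was under 0.05 and the absolute log2 difference was over 0.5. The difference of the KO change between cell lines needed only the adjusted p. The table gives no read counts, so depth is unknown. It held 11293 to 11362 genes above 0 per sample.

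SMARCA4, the targeted gene, was lower in every KO sample. In MDA-MB-468, its values were 6.61, 6.62 and 6.68 in control and 5.35, 5.48 and 5.61 in KO samples, a log2 difference of -1.16 (SE 0.08, adjusted p = 0.014). In MDA-MB-231, control samples had 6.10, 6.18 and 6.09 and KO samples 4.46, 4.64 and 4.56, a difference of -1.57 (SE 0.06, adjusted p = 0.0014). The fall was larger in MDA-MB-231 (difference of the 2 changes 0.41, SE 0.11, adjusted p = 0.027). Levels of the epithelial keratins KRT8, KRT18 and KRT19 were between 7.63 and 11.22 in all samples. The epithelial adhesion genes EPCAM and CDH1 separated the cell lines: EPCAM was 8.11 to 8.27 in MDA-MB-468 and 3.74 to 4.15 in MDA-MB-231, and CDH1 (E-cadherin) was 5.24 to 5.72 and 0.16 to 1.01. Of markers of other cell types, 0 of 7 for fibroblasts and 0 of 5 for endothelium were in the table. For leukocytes, 2 of 7 were, CD14 and CD68, and PTPRC, which defines these cells, was not among them.

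Of the factors that changed in KO cells, 3 (FOXA1, MYB and ELF3) have a single start in the RefSeq promoter table of GRCh38.p14, in which 9 of the 10 factors are listed. The 250 bases before that start are shown because FOXA1 and MYB fell together in MDA-MB-468 KO cells while ELF3 rose in MDA-MB-231 KO cells, and capitals mark matches to 8 short motifs searched on both strands.
FOXA1, chr14:37595250-37595499, minus strand: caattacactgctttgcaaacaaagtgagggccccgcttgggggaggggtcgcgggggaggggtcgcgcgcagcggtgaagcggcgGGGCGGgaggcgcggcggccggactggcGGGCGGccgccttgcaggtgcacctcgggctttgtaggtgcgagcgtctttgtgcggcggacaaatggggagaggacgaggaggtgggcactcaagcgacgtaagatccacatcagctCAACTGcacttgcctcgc
MYB, chr6:135181058-135181307, plus strand: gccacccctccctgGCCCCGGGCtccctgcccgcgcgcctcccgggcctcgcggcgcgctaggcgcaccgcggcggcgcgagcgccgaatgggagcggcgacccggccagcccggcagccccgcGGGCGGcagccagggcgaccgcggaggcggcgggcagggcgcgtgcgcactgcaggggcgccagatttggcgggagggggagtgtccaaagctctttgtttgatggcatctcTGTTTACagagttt
ELF3, chr1:202010337-202010586, plus strand: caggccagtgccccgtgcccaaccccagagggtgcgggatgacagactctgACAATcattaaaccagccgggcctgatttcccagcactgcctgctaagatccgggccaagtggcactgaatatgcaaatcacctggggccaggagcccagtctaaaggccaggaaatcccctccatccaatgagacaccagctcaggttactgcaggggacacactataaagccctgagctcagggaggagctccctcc

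The letters searched were TGTTTAC for forkhead factors and CAACNG for MYB. Nuclear factor I was represented by TTGGCA, and the ETS factors were represented by AGGAAG. For SOX factors the motif was ACAAT, and the one used for AP-2 was GCCNNNGGC. The GC box, which KLF factors share with others, was GGGCGG, and GATA factors had the motif AGATAA. The FOXA1 window held 2 GC boxes and 1 MYB match, the MYB window 1 forkhead, 1 AP-2 and 1 GC box match, and the ELF3 window 1 SOX match. Of 35116 windows of the same length, 2.98% held the forkhead, 27% the MYB, 19.8% the AP-2, 24.6% the SOX and 42.6% the GC box letters. The GC content was 67.2% for FOXA1, 75.6% for MYB and 58.4% for ELF3, against a median of 58% over all windows. These matches are letters in a window and were not tied to binding of a factor.

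In MDA-MB-468 control cells, the order of levels ran from ELF3 at 8.56 ± 0.20 (SD, n = 3) through EHF (6.46 ± 0.12), KLF5 (6.36 ± 0.03), TFAP2A (6.11 ± 0.07), FOXA1 (5.65 ± 0.17), SOX9 (5.44 ± 0.20), GATA3 (4.75 ± 0.12), NFIB (4.21 ± 0.13) and NFIA (3.87 ± 0.20) to MYB (3.49 ± 0.11). The samples of EHF and KLF5 overlapped, as did those of FOXA1 and SOX9, and the other neighbours in the order were apart. ELF3 alone made up 48.8% ± 2.78 of the summed FPKM of the 10 factors.

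In MDA-MB-231 control cells, EHF led instead (6.13 ± 0.14), followed by SOX9 (4.92 ± 0.03) and KLF5 (3.85 ± 0.18). TFAP2A (2.73 ± 0.13), ELF3 (2.65 ± 0.31) and NFIB (2.39 ± 0.10) followed, each overlapping its neighbour, and then GATA3 (2.15 ± 0.12) and NFIA (2.02 ± 0.12), which overlapped. MYB (0.60 ± 0.16) was low, and FOXA1 was listed at 0.03, 0 and 0 in control and at 0.01, 0 and 0 in KO samples. EHF made up 51.6% ± 1.71 of the summed FPKM and ELF3 3.96% ± 0.74. The sum itself was 705 to 835 FPKM in MDA-MB-468 control and 129 to 146 in MDA-MB-231 control samples.

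Between control cells, every factor had its higher level in MDA-MB-468, with no overlap between the groups for 10 of 10 factors. Of all genes, 43.2% were higher without overlap. The test was passed by 9 factors, all higher in MDA-MB-468, against 32.8% of all genes. The factors' median log2 difference was 2.56 and that of all genes 0.01. The table holds only genes with an average and an SD of at least 1 FPKM over the 12 samples, a filter that all 10 factors meet over the 6 MDA-MB-468 samples alone but only 4 (ELF3, EHF, SOX9 and KLF5) over the 6 MDA-MB-231 samples. FOXA1 and MYB averaged under 1 FPKM there, and NFIA, NFIB, TFAP2A and GATA3 had an SD under 1, so these 6 are in the table through MDA-MB-468 or the difference between the lines. The counts and the median are therefore a description and support nothing.

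The ratio of mean FPKM between control cells of the 2 lines was 70.6 for ELF3, 19.5 for MYB, 12.1 for TFAP2A, 7.55 for GATA3, 6.01 for KLF5, 4.47 for NFIA and 4.12 for NFIB. FOXA1 was 49.4 FPKM in MDA-MB-468 control cells, and no ratio is given against values listed at 0. SOX9 and EHF were the nearest to even: SOX9 was 1.46 times as high (log2 difference 0.52, SE 0.10, adjusted p = 0.00036) and EHF 1.26 times (0.33, SE 0.11, adjusted p = 0.014, under the limit of 0.5).

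Between KO cells, 8 factors passed the test with the higher level in MDA-MB-468 and 1 with the lower, against 33.2% and 29.7% of all genes. Without overlap, 9 were higher and 1 lower, against 44.5% and 40.8% of all genes. EHF was the factor on the other side. Its mean FPKM in MDA-MB-468 was 0.629 times that in MDA-MB-231 KO cells (log2 difference -0.67, SE 0.11, adjusted p = 0.00011). The ratio of NFIA came to 2.2 and that of ELF3 to 33.1. SOX9 was 1.25 times as high (0.31, SE 0.10, adjusted p = 0.011) and did not reach the limit of 0.5.

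FOXA1, MYB and NFIA fell after SMARCA4 KO in MDA-MB-468. These 3 of 10 factors passed the test, all lower, where 0.815% of all genes were lower and 2.14% changed either way. As the factors were chosen with earlier results of these data known, this count is only a description. FOXA1 was 5.84, 5.56 and 5.54 in control and 5.01, 4.77 and 4.78 in KO samples. The groups did not overlap, the log2 difference was -0.80 (SE 0.11, adjusted p = 0.032), and the mean FPKM fell from 49.4 to 27.9, to 56.6% of control.

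MYB was 3.59, 3.38 and 3.51 in control and 3.01, 2.87 and 2.92 in KO samples of MDA-MB-468. Again each KO sample lay under each control sample, with a log2 difference of -0.56 (SE 0.07, adjusted p = 0.027) and 64.6% of the control FPKM. NFIA was 4.07, 3.88 and 3.66 in control and 3.22, 2.93 and 3.10 in KO samples. It fell by 0.79 (SE 0.13, adjusted p = 0.038), to 54.8% of the control FPKM, and its groups did not overlap.

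The tests above were fitted without a block. With the replicate numbers in the titles as a block, limma kept FOXA1 (adjusted p = 0.041) and MYB (0.045) but not NFIA (log2 difference -0.79, adjusted p = 0.051). The number after the letter p in the sample descriptions gave other blocks for p26 and p27, whose samples did not deviate together. Control p28 and KO p25 had no partner by this number and were put in 1 block. With the blocks by p number, FOXA1 (adjusted p = 0.15), MYB (0.14) and NFIA (0.16) were all lost. Each of the 3 calls was kept without KO replicate 1 and lost without any one of control replicates 1, 2 and 3 or KO replicates 2 and 3. In the fits that lost them, adjusted p was 0.066 to 0.13 for FOXA1, 0.068 to 0.11 for MYB and 0.066 to 0.14 for NFIA. The log2 differences stayed between -0.89 and -0.51. These fits called only 0 to 27 of all genes, against 247 with all samples. In bulk RNA, fewer cells that express a gene and less RNA of it per cell cannot be told apart.

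EHF, KLF5 and GATA3 were also lower in all 3 MDA-MB-468 KO samples than in any control sample but did not pass the test. EHF was 6.59, 6.43 and 6.37 in control and 6.21, 5.92 and 5.77 in KO samples (log2 difference -0.49, SE 0.13, adjusted p = 0.089). KLF5 was 6.32, 6.37 and 6.38 against 5.93, 5.89 and 6.15 (-0.36, SE 0.08, adjusted p = 0.063). GATA3 was 4.69, 4.68 and 4.89 against 4.28, 4.47 and 4.53 (-0.32, SE 0.09, adjusted p = 0.11). With these, 6 of 10 factors were lower without overlap, and 13.5% of all genes were. EHF was past both limits only without KO replicate 1 (log2 difference -0.62, adjusted p = 0.038) among the fits that left out a sample.

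The other 4 factors of MDA-MB-468 had overlapping groups. NFIB, the relative of NFIA, was 4.33, 4.07 and 4.22 in control and 4.21, 4.10 and 4.06 in KO samples (log2 difference -0.08, SE 0.08, adjusted p = 0.56). ELF3 was 8.71, 8.33 and 8.64 against 8.90, 8.66 and 8.70 (0.19, SE 0.12, adjusted p = 0.37). SOX9 (0.08, SE 0.12, adjusted p = 0.73) and TFAP2A (-0.07, SE 0.06, adjusted p = 0.52) were between 5.22 and 6.17 in all 6 samples. The summed FPKM of the 10 factors was 775.3 ± 65.7 in control and 746.3 ± 52.2 in KO samples. The share of ELF3 among the 10 factors was 57.9% ± 1.32 in KO and 48.8% ± 2.78 in control samples, and that of FOXA1 was 3.74% ± 0.14 and 6.37% ± 0.49.

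In MDA-MB-231, the factors that changed after SMARCA4 KO were ELF3 and EHF, and both rose. These 2 of 10 factors passed the test as higher, against 2.39% of all genes (3.7% either way), and 0 factors passed as lower in limma (0 also at an unadjusted p under 0.05). At that unadjusted limit, 3596 of all 11529 genes passed either way. ELF3 was 2.38, 2.98 and 2.58 in control and 4.05, 3.85 and 3.47 in KO samples. Every KO sample was above every control sample, the log2 difference was 1.14 (SE 0.21, adjusted p = 0.031), and the mean FPKM rose from 5.37 to 13.1, to 243% of control, still far under the 379 FPKM of MDA-MB-468 control cells.

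EHF was 6.03, 6.29 and 6.09 in control and 6.66, 6.61 and 6.65 in KO samples of MDA-MB-231, a log2 difference of 0.51 (SE 0.08, adjusted p = 0.021) and 142% of the control FPKM. The KO samples lay close together, above all controls. SOX9 was 4.91, 4.96 and 4.90 against 5.26, 5.12 and 5.24, without overlap, but its difference of 0.29 (SE 0.06, adjusted p = 0.034) was under the limit of 0.5. Thus 3 of 10 factors were higher without overlap, against 16.6% of all genes. ELF3 was kept without control replicate 2 or without KO replicate 3 (adjusted p = 0.046 and 0.045) and lost without any of the other 4 samples (0.076 to 0.11). EHF was kept without control replicate 2 (0.030) and lost without any of the other 5 (0.051 to 0.082, log2 difference 0.45 to 0.52). Same-numbered samples of this line did not deviate together, and limma with the title block kept neither ELF3 (adjusted p = 0.092) nor EHF (0.091).

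The factors that fell in MDA-MB-468 did not pass the test in MDA-MB-231. MYB was 0.68, 0.71 and 0.42 in control and 0.52, 0.40 and 0.48 in KO samples (log2 difference -0.14, SE 0.09, adjusted p = 0.34). NFIA was 2.11, 2.07 and 1.88 against 2.02, 1.82 and 2.5 (0.09, SE 0.18, adjusted p = 0.78), with KO replicate 3 above the rest. GATA3 was 2.12, 2.05 and 2.28 against 2.10, 2.60 and 2.51 (0.25, SE 0.15, adjusted p = 0.30). NFIB (-0.12, adjusted p = 0.26), TFAP2A (0.09, adjusted p = 0.60) and KLF5 (-0.09, adjusted p = 0.57) also had overlapping groups.

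**Figure D1:**
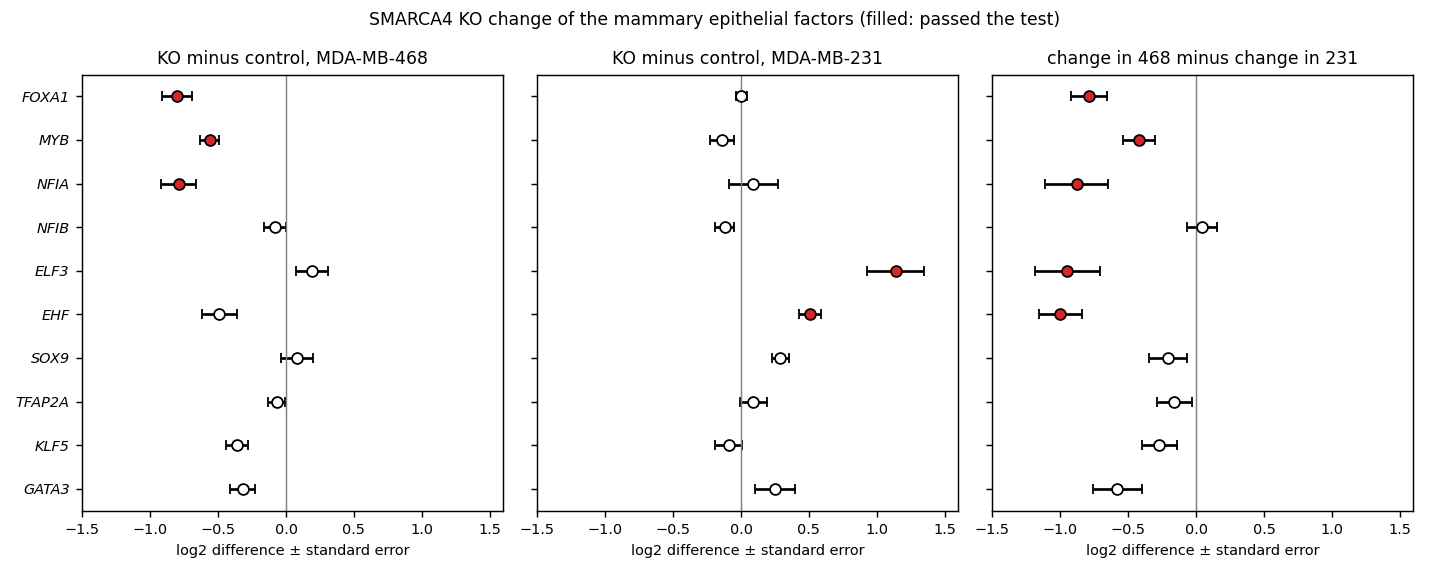
Change of each factor after SMARCA4 KO within MDA-MB-468 (left) and MDA-MB-231 (middle), and the first change minus the second (right). Points are log2 differences, bars are standard errors, and filled points passed the test. FOXA1, MYB and NFIA are filled on the left, ELF3 (1.14) and EHF (0.51) in the middle, and those 5 factors on the right, all under 0.

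The KO change differed between the cell lines for 5 of 10 factors, each with the lower value in MDA-MB-468, where 6.83% of all genes were called in that direction and 14.7% in either. The difference was -1.0 for EHF (SE 0.16, adjusted p = 0.0024), -0.95 for ELF3 (SE 0.24, adjusted p = 0.026), -0.88 for NFIA (SE 0.23, adjusted p = 0.026), -0.79 for FOXA1 (SE 0.13, adjusted p = 0.0027) and -0.42 for MYB (SE 0.12, adjusted p = 0.042). For EHF the values in both lines lay on opposite sides of 0. For FOXA1 the difference is that of MDA-MB-468 alone, as values listed at 0 in MDA-MB-231 leave no room for a fall.

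MYB was below 1 FPKM in MDA-MB-231, where adding 1 FPKM before the logarithm shrinks a change. With 0.1 FPKM added in its place, its difference between the lines was -0.27 (adjusted p = 0.50) and was lost. It was also lost with the title block (adjusted p = 0.052), under which GATA3 (-0.58, SE 0.18, adjusted p = 0.050 without the block, just over the limit) was called. The differences of EHF and FOXA1 were kept without any one of the 12 samples. Those of NFIA, ELF3 and MYB were kept in 8, 5 and 3 of 12 such fits, with adjusted p up to 0.067, 0.065 and 0.099. NFIB (0.04, adjusted p = 0.85), TFAP2A (-0.16, adjusted p = 0.41), SOX9 (-0.21, adjusted p = 0.33) and KLF5 (-0.27, adjusted p = 0.17) did not pass.

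Over the 12 samples, each taken as the deviation from the mean of its own cell line, the values of FOXA1 were most like those of MYB (Pearson r = 0.92) and NFIA (0.87) among the 10 factors, and those of ELF3 most like SOX9 (0.80). These values describe samples that share the KO contrast. As FOXA1 was listed at or near 0 throughout MDA-MB-231, its correlations rest almost only on the MDA-MB-468 samples. Among all genes, CRISP3 (0.992), TMPRSS4 (0.991) and CLDN10 (0.987) were the most like FOXA1, and SEC24D (0.967), G3BP2 (0.954) and DMD (0.947) the most like MYB. LIMCH1 (0.954), FOXRED2 (0.946) and APPL1 (0.93) were the most like NFIA. PALM (0.968), LTBP3 (0.96) and TJP3 (0.956) were the most like ELF3, and GYG2 (0.962), SULT1A1 (0.953) and IL1R1 (0.953) the most like EHF. For the other 5 factors, the highest were ANKRD13A with NFIB (0.895), TCP11L2 with SOX9 (0.912), ARIH1 with TFAP2A (0.887), GPD2 with KLF5 (0.949) and SLC26A11 with GATA3 (0.883).

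Relatives of the factors in the same families were examined next, 24 of the 36 listed being in the table. In MDA-MB-468, 0 of 24 passed the limma test in either direction (5 higher and 3 lower at an unadjusted p under 0.05), and in MDA-MB-231, 1 rose and 2 fell, where 3.7% of all genes passed. FOXA2, a forkhead factor better known from liver and gut, had the opposite pattern of FOXA1 across the cell lines: it was listed at 0 in all 6 MDA-MB-468 samples and was 3.72, 3.97 and 3.90 in control and 3.03, 3.03 and 2.94 in KO samples of MDA-MB-231. It fell there by 0.87 (SE 0.08, adjusted p = 0.0082). So each line had 1 of these 2 FOXA genes well above 0, and in each line that gene fell after KO.

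SPDEF, an ETS factor of secretory epithelium and a relative of ELF3 and EHF, went the other way from them in MDA-MB-231. It was 4.05, 4.80 and 4.83 in control and 3.17, 3.18 and 2.89 in KO samples, a log2 difference of -1.48 (SE 0.23, adjusted p = 0.022). In MDA-MB-468 it was 7.28, 7.22 and 7.15 against 6.85, 6.46 and 6.30 (-0.68, SE 0.15, adjusted p = 0.064), and the 2 changes were not called different (adjusted p = 0.070). MYBL2, a cell cycle relative of MYB, rose in MDA-MB-231 from 5.31 ± 0.10 to 5.90 ± 0.03 (log2 difference 0.59, SE 0.06, adjusted p = 0.010).

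**Figure D2:**
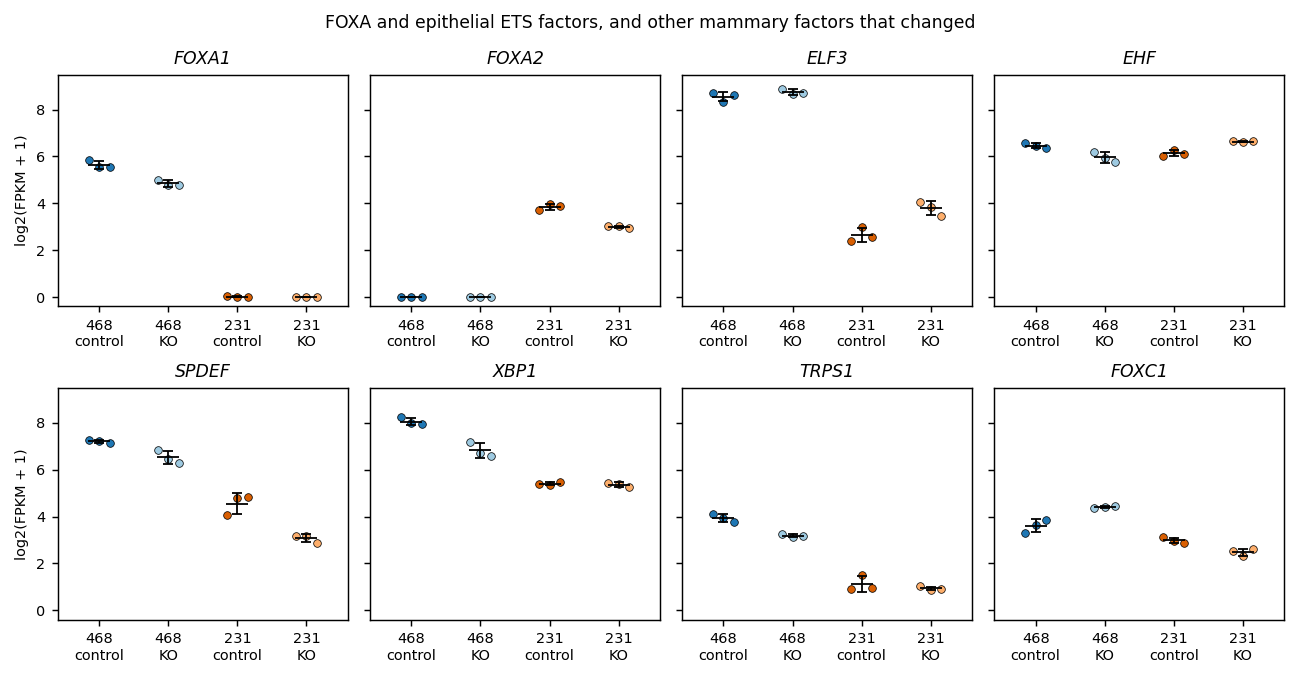
Levels of FOXA1 and FOXA2, of the ETS factors ELF3, EHF and SPDEF, and of XBP1, TRPS1 and FOXC1 in every sample. The vertical axis is log2(FPKM + 1), points are samples, and bars are the mean ± SD (n = 3). FOXA2 is at 0 wherever FOXA1 is high, and SPDEF is lower in MDA-MB-231 KO samples (2.89 to 3.18), where ELF3 is higher (3.47 to 4.05).

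Of 38 other transcription factors of mammary epithelium, 25 were in the table, and 2 rose and 3 fell in MDA-MB-468, where 2.14% of all genes passed the test. XBP1, a regulator of the unfolded protein response that is abundant in luminal cells, was 8.24, 7.98 and 7.95 in control and 7.20, 6.72 and 6.57 in KO samples (log2 difference -1.23, SE 0.18, adjusted p = 0.033). TRPS1, a GATA-type repressor of breast epithelium, fell by 0.74 (SE 0.10, adjusted p = 0.028), and LMO4, a LIM-only cofactor, by 0.62 (SE 0.09, adjusted p = 0.033). FOXC1, a forkhead factor typical of basal-like tumours, rose from 3.61 ± 0.28 to 4.41 ± 0.04 (0.80, SE 0.14, adjusted p = 0.046), though not with the title block (adjusted p = 0.058). PPARG, a nuclear receptor of lipid metabolism, rose by 0.56 (SE 0.09, adjusted p = 0.038). In MDA-MB-231, 0 of 25 rose in limma (2 at an unadjusted p under 0.05) and the 2 that fell were these same PPARG (-0.56, adjusted p = 0.0098) and FOXC1 (-0.51, adjusted p = 0.036), whose changes differed between the lines by 1.12 (adjusted p = 0.00032) and 1.31 (adjusted p = 0.0012). The list's median was 0.01 in MDA-MB-468, against 0.02 for all genes, and -0.01 for both in MDA-MB-231.

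Of 32 genes that mark the luminal and epithelial state, 24 were in the table. In MDA-MB-468, 0 of 24 passed the limma test (2 higher and 6 lower at an unadjusted p under 0.05, median -0.08). In MDA-MB-231, 5 rose and 0 fell, where 2.39% of all genes rose (8 and 0 at an unadjusted p under 0.05, median 0.19, against -0.01 for all genes). LCN2, a secreted iron-binding protein, rose from 4.79 ± 0.51 to 6.96 ± 0.39 (log2 difference 2.17, SE 0.31, adjusted p = 0.018), and ALDH1A3, a retinal dehydrogenase of luminal progenitors, from 2.33 ± 0.08 to 3.82 ± 0.05 (1.49, SE 0.06, adjusted p = 0.0014). MUC1, the mucin of luminal membranes, rose by 1.45 (SE 0.32, adjusted p = 0.045) and CLDN3, a tight junction protein, by 0.75 (SE 0.07, adjusted p = 0.0082). The fifth was CDH1, which rose by 0.54 (SE 0.12, adjusted p = 0.044). Its mean stayed under 1 FPKM, at 0.267 FPKM in control and 0.84 in KO samples, where the added 1 FPKM shrinks a change. With 0.1 FPKM added, its difference was 1.42 (SE 0.34, adjusted p = 0.060) and was lost. The changes of 6 genes of the list differed between the lines, all with the lower value in MDA-MB-468. Of all genes, 6.83% were called in that direction.

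Of the genes of basal epithelium, 19 of 23 were in the table. In MDA-MB-468, 0 of 19 passed the limma test (8 higher and 0 lower at an unadjusted p under 0.05), with a median of 0.35 against 0.02 for all genes, and in MDA-MB-231, 2 rose, against 2.39% of all genes: TRIM29 by 0.86 (SE 0.13, adjusted p = 0.023) and ITGB4, the integrin of hemidesmosomes, by 0.78 (SE 0.16, adjusted p = 0.039). Of 10 factors of the mesenchymal state, 4 were in the table, and 0 passed the limma test after KO in either line (1 lower in MDA-MB-468 and 3 lower in MDA-MB-231 at an unadjusted p under 0.05), with a median of -0.37 in MDA-MB-231. Between the control lines, all 4 passed the test as lower in MDA-MB-468, against 31.4% of all genes. There, 23 of 24 luminal and epithelial genes were higher and 0 lower, 19 of 25 other mammary factors higher and 4 lower, and 10 of 19 basal genes higher and 9 lower, against 32.8% of all genes higher. The filter of the table bears on these counts too. The 2 leukocyte markers had a summed FPKM of 93.5 to 103 in control and 105 to 114 in KO samples of MDA-MB-231, where CD14 rose by 1.18 (SE 0.21, adjusted p = 0.029). In MDA-MB-468 the sums were 47.2 to 54.8 and 23.1 to 65.3. Their part in the changes of ELF3, EHF and the luminal genes was not tested.

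Several of these calls were lost when 1 sample was left out, which also leaves fewer samples for the test. In MDA-MB-231, FOXA2, PPARG, CLDN3 and ALDH1A3 passed the test without any one of the 6 samples, MYBL2 in 5 and LCN2 in 4 of 6 such fits, SPDEF, MUC1, TRIM29 and CD14 in 1, and FOXC1, CDH1 and ITGB4 in 0. In MDA-MB-468, XBP1, TRPS1, LMO4 and PPARG passed in 1 of 6 and FOXC1 in 0, with adjusted p up to 0.16. SMARCA4 itself passed in 3 of 6 there, and these fits called 0 to 474 of all genes. A lost call therefore does not show that it rested on the sample left out.

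In GRCh37, FOXA1 is at chr14:38058757-38065264 on the minus strand, MYB at chr6:135502446-135540311 on the plus strand, NFIA at chr1:61330931-61928460 on the plus strand, ELF3 at chr1:201977073-201986311 on the plus strand and EHF at chr11:34642640-34684835 on the plus strand. For 8 of the 10 factors, an annotated gene on the opposite strand overlaps the locus, and 0 of these 16 genes were in the table. The kit was stranded, but whether the counting used strand is not stated, so reads of such partners may be included. EHF and KLF5 have no such partner.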

How the data were processed

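RNA of 12 samples was sequenced with a stranded mRNA kit. After trimming by Trimmomatic, the authors mapped reads to hg19 with STAR 2.5.2a and quantified genes with RSEM 1.1.13. Genes whose FPKM had an average or SD below 1 were dropped, and the rest were deposited as log2(FPKM + 1). The file gives no counts, so depth is unknown and no counting interval was computed. In the values, the smallest average was 1.07 FPKM and the smallest SD 1.0.

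limma 3.58.1 in R 4.3.3 (eBayes without trend) was fitted to all 11529 genes: KO against control within each cell line alone, and the contrasts between lines from 1 fit of the 12 samples in 4 groups. The scripts were tested on simulated data. FPKM was recovered as 2 to the power of the value, less 1. Groups and replicate numbers came from the sample titles. Same-numbered MDA-MB-468 samples deviated together from their group means (correlations 0.28, 0.191 and 0.147), though control replicate 3 and KO replicate 2 did so as well (0.153). Same-numbered MDA-MB-231 samples did not (-0.074, 0.077 and -0.159). The pairing by title number entered only alternative fits, as a block, and the main fits had no block. A number after the letter p in the descriptions gave another pairing for MDA-MB-468, in which control p28 and KO p25 had no partner and shared 1 block. The members and lists were chosen with earlier results of these data known. Genes named were the 10 factors, SMARCA4, up to 4 called genes per list and direction (between control or between KO cells, counts only), and the genes most correlated with each factor; CDH1, and RUNX3, ERBB3 and CLDN3 for the difference between lines, were added after their values were seen. Alternatives were another pseudocount, a filter on low values, an intensity trend, 2 normalizations, blocks, other sample sets and leaving out each sample; a correction for GC content and transcript length was added after seeing the data. Loci came from GENCODE release 44 on GRCh37, and promoters from RefSeq.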

Additional observations from a re-analysis of the deposited data

Results flagged for a closer look

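The KO change differed between MDA-MB-468 and MDA-MB-231 by the interaction test (change in MDA-MB-468 minus change in MDA-MB-231, log2) for 5 of the 10 factors: FOXA1 (-0.79), MYB (-0.42), NFIA (-0.88), ELF3 (-0.95) and EHF (-1.0). FOXA1 was listed at or near 0 throughout MDA-MB-231, so its difference is that of MDA-MB-468 alone. The difference of MYB was lost with 0.1 FPKM added (-0.27, adjusted p = 0.50) and with the title block (adjusted p = 0.052). The KO change also differed for SMARCA4 itself (0.41), which was more reduced in MDA-MB-231. Of all genes, 14.7% were called by this test in either direction and 6.83% with the lower value in MDA-MB-468. These shares stand beside the counts of all lists below, which are descriptions only. Of 24 relatives, 1 had a higher and 4 a lower value in MDA-MB-468: FOXA2 (0.87, a gene listed at 0 throughout MDA-MB-468), KLF11 (-0.59), KLF3 (-0.54), TFAP2C (-0.4) and SOX13 (-0.34). Of 25 other mammary factors, 5 were higher, FOXC1 (1.31), FOXQ1 (1.21), PPARG (1.12), RUNX2 (0.65) and RUNX3 (0.55), and XBP1 (-1.18) was lower. RUNX3 was listed at or near 0 throughout MDA-MB-231. FOXC1 and PPARG passed the test in both lines, in opposite directions.

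Of 24 luminal and epithelial genes, 6 had the higher change in MDA-MB-231: LCN2 (-2.21), MUC1 (-1.97), ALDH1A3 (-1.56), CDH1 (-0.76), ERBB3 (-0.66) and CLDN3 (-0.49). Of 19 basal genes, TRIM29 (-1.0) was on that side, and CAV1 (1.47) and LAMB3 (1.15) were on the other. Of 4 mesenchymal factors, SNAI2 (0.45) and ZEB2 (0.39) had the higher value in MDA-MB-468. Both were listed at 0 throughout that line, so these differences are their lower levels in MDA-MB-231 KO samples (-0.45 and -0.39), neither of which passed the test. The monocyte marker CD14 had -1.75, and its 3 MDA-MB-468 KO samples were spread from 4.44 to 6.0. With 1 of the 12 samples left out at a time, ZEB2 kept its call in 1 fit, SOX13 and CLDN3 in 2, TFAP2C and FOXQ1 in 3, ERBB3 in 5, CD14 in 6 and RUNX2 in 10, and the other genes of these lists named here in all 12. No cause of these differences was tested.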

How the results depend on the processing

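Directions of the 5 factors called within a cell line did not change under any alternative run, but the calls did. In MDA-MB-468, the number of factors called was 0 with the replicate block by p number, as was that of all genes (0, smallest adjusted p 0.14, 2218 genes at an unadjusted p under 0.05), with FOXA1 at 0.15, MYB at 0.14 and NFIA at 0.16; samples with the same p number did not deviate together (correlations -0.257 and 0.05). All genes called there were 247, 424 with the filter on low values and 537 from 1 fit of all 12 samples. The title block gave 241 genes and 2 factors in MDA-MB-468, and 1463 genes and 5 factors for the difference between the lines. In MDA-MB-231, whose same-numbered samples did not deviate together, the title block left 0 factors and 0 genes by limma (smallest adjusted p 0.052, 3126 genes unadjusted), against 426 genes without it, with ELF3 at 0.092 and EHF at 0.091. Besides the factors named beside the results, the title block changed other calls of the differences between the lines. It took CLDN3 (adjusted p = 0.080), SOX13 (0.082), TFAP2C (0.084), RUNX2 (0.052) and ZEB2 (0.074) from them and added MYBL2 (0.035).

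Leaving out 1 sample at a time gave 0 to 4 factors and 0 to 474 genes in MDA-MB-468, 0 to 2 factors and 99 to 311 genes in MDA-MB-231, 2 to 5 factors and 924 to 1897 genes for the difference of the changes, 8 to 9 factors and 7354 to 7419 genes between control cells, and 9 factors and 7213 to 7268 genes between KO cells. Scaling to the same 75th percentile turned the split of the difference from 912 higher and 787 lower genes to 671 and 941, with 6 factors called, all lower.

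Signs turned, in values that never passed the test, for NFIA in MDA-MB-231 (-0.01 with quantile normalization, -0.1 without KO replicate 3, range -0.1 to 0.24 over samples left out), FOXA1 there (0.0 without control replicate 1), SOX9 in MDA-MB-468 (-0.04 without control replicate 2), and the NFIB difference (0.0 at the same 75th percentile, and -0.02, -0.03 and -0.01 without MDA-MB-231 control replicate 1, MDA-MB-468 control replicate 2 and MDA-MB-468 KO replicate 1, range -0.03 to 0.1). The same held in MDA-MB-468 for FOXA2 (-0.08 with GC content and length corrected), LCN2 (0.01 without control or KO replicate 1) and ALDH1A3 (0.13 without KO replicate 1, range -0.19 to 0.13), and in MDA-MB-231 for XBP1 (0.01 without KO replicate 3) and TRPS1 (0.01 without control replicate 2, range -0.3 to 0.01). The causes were not tested. The GC correction, for which 88.3% of genes had a value, kept 3 and 2 factors called in the 2 lines.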
